A study of Homo sapiens with 9 samples.

Results

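The genes described here are 10 imprinted genes, PEG10, SGCE, MEST, PEG3, IGF2, H19, CDKN1C, SNRPN, NDN and MEG3, in single and pooled cells of the near-haploid human line HAP1. They were taken by name from a list, and all 10 were found among the 26485 gene models counted in each of the 9 libraries. The study isolated total RNA from sorted HAP1 cells with NAxtra magnetic nanoparticles and sequenced it with the SMART-Seq Stranded kit, to find out how far down the number of cells can go. The samples were 3 libraries of 1 cell each (Single Cell Rep 1 to 3) and 2 libraries each of 10, 100 and 1000 cells. All cells were of the WT genotype, grown in IMDM medium without any further treatment. The methods of the study also give a larger volume of DNase for 1000 cells than for fewer cells, while the labels give the same volume for all libraries. The labels call the libraries biological replicates but do not tie them to separate cultures, and the p-values therefore measure the spread between these libraries.

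An imprinted gene is transcribed from the chromosome copy of one parent, because DNA methylation laid down in the egg or in the sperm at a control region is kept through development. Imprinted genes lie in domains in which paternally and maternally expressed genes stand side by side, and many of them act on growth, on the placenta and on the developing brain. HAP1 holds a single copy of almost every chromosome, so each domain is present with the imprint of one parent, or with what the line has kept of it. Which parent each copy came from was not analysed here, and the allele named for each gene below is the one known where the gene is imprinted, which for some genes is in a few tissues or cell types.

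The libraries held between 42842970 and 61645865 counts assigned to genes, and a gene's level is given as CPM, its counts scaled to a common library size with TMM, or as TPM, which also divides by the exonic length and is used wherever genes are compared with each other. No 2 libraries agreed within counting noise. Across 16184 genes, the log2 CPM of the single cells was correlated with the mean of the 6 libraries of 10 or more cells. The r was 0.923, 0.920 and 0.904 for Single Cell Rep 1, 2 and 3. For the 6 libraries with each other's mean it was 0.969 to 0.991. In the study, Single Cell Rep 3 grouped with the smaller cluster of HAP1 cells from another single-cell method. The study reads this grouping as subpopulations of HAP1 seen by both methods. Whether this bears on the values of Single Cell Rep 3 below was not tested. Of 10 blood markers, from the origin of the line in a leukaemia, none was on, GATA1 and HBG1 were among those at 0 counts in every library, and their summed level was 0 to 1.64 CPM in the single cells and 0.277 to 2.03 CPM in the other libraries. Of 8 fibroblast markers COL1A1 and PDGFRA were on while DCN, LUM and FAP were at 0 counts, and their summed level was 53.7 to 171.2 CPM in the single cells and 121.4 to 144.5 CPM in the other libraries. Of 7 plasma cell markers SDC1 was on while TNFRSF17 was at 0 counts, and their summed level was 42.6 to 61.8 CPM in the single cells and 46.8 to 54.6 CPM in the other libraries. The part of the fibroblast and plasma cell markers in the results was not tested.

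A gene was called on with at least 1 CPM in all 6 libraries of 10 or more cells, off with less than 0.1 CPM in all 6, and low otherwise. By this rule PEG10, SGCE, MEST and CDKN1C were on, MEG3, H19 and IGF2 were low, and SNRPN, PEG3 and NDN were off. Of all 26485 gene models, 47.3% were on, so 4 of 10 members is close to that background. The 4 genes that were on spanned levels from 1070 TPM for PEG10 and 60.4 TPM for SGCE to 3.77 TPM for MEST and 3.73 TPM for CDKN1C in the mean of the 6 libraries, and the 3 low genes lay between 0.0153 TPM for IGF2 and 0.143 TPM for MEG3. MEST and CDKN1C, next to each other in the order of levels, did not differ beyond their SD of 0.890 and 0.734 TPM (n = 6 each), while PEG10 and SGCE stood apart from each other and from the rest. Just inside the threshold for on, CDKN1C had 2.92 CPM in its lowest library, and just outside it MEG3 had 0.0203 CPM in its lowest and 1.74 CPM in its highest library.

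**Figure D1:**
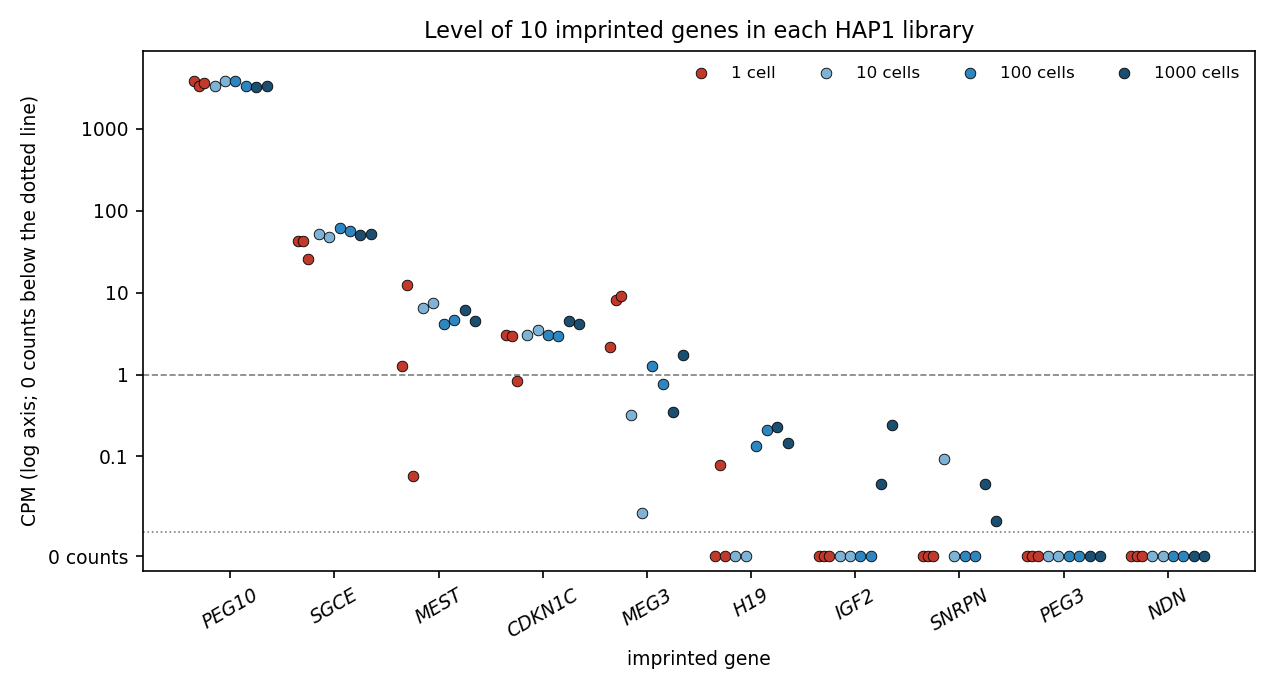
CPM of the 10 imprinted genes in each of the 9 libraries on a log axis, with libraries at 0 counts set below the dotted line and the level of 1 CPM dashed. Points are single libraries, coloured by the number of cells from 1 to 1000, and genes run from the highest to the lowest mean. PEG10 lies between 3235 and 3883 CPM, and PEG3 and NDN are at 0 counts in all 9 libraries. MEST scatters among the single cells, while MEG3 scatters more among the other libraries than among the single cells.

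PEG10 (paternally expressed gene 10), on chr7:94656325-94669694 (hg38, plus strand), was one of the most abundant transcripts among the gene models counted, at every number of cells. The gene descends from a retrotransposon and is essential for the placenta in the mouse. Its messenger RNA carries overlapping gag-like and pol-like reading frames, and the ribosome reaches the pol-like frame by slipping back by 1 base at a heptamer, as retroviruses do. The heptamer is shown, in capitals, with the coding bases around it up to the last codon of the gag-like frame, from the GENCODE v29 transcript PEG10-202, because PEG10 is by far the most abundant of the members. These 52 bases lie at chr7:94664480-94664531 (hg38, plus strand), with the heptamer at chr7:94664510-94664516.
PEG10 frameshift site: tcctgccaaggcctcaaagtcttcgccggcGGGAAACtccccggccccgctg

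PEG10 had 3883, 3386 and 3653 CPM in the single cells, against 3359 and 3876 CPM in 10 cells, 3803 and 3333 CPM in 100 cells, and 3235 and 3310 CPM in 1000 cells. The single cells lay within or next to the range of the other libraries and the groups overlapped. PEG10 took between 0.328% and 0.393% of all counts of a library, over gene models that include no mitochondrial genes. It ranked between 6 and 10 among these gene models by CPM. By TPM, where its great length of 6628 exonic bases no longer counts, it ranked between 62 and 91. Its level was 1063 ± 105 TPM in the single cells and 1070 ± 88.1 TPM in the 6 other libraries (SD, n = 3 and n = 6), and the log2 fold change between them was 0.06 ± 0.07 (SE, edgeR adjusted p = 0.655). The SD of its log2 CPM was 0.10 among the single cells and 0.11 among the 6 other libraries. In the libraries of 10 or more cells, a smaller number of cells that express a gene and less RNA per cell cannot be told apart.

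SGCE, on chr7:94585224-94656209 (minus strand), encodes epsilon-sarcoglycan, a membrane protein whose paternally inherited mutations cause myoclonus-dystonia. It starts 116 bases from the start of PEG10 and runs the other way. SGCE had 42.7, 42.9 and 26.1 CPM in the single cells, against 52.7 and 48.5 CPM in 10 cells, 61.8 and 55.9 CPM in 100 cells, and 51.3 and 52.3 CPM in 1000 cells. All 3 single cells lay below all 6 other libraries, as 10.1% of the 15603 genes tested did. Single Cell Rep 3 was the lowest. The log2 fold change was -0.53 ± 0.17 (SE) and did not pass the test (edgeR adjusted p = 0.0813). It was -0.33 without Single Cell Rep 3 (edgeR adjusted p = 0.0862), and it passed without Single Cell Rep 1 (-0.64, edgeR adjusted p = 0.0392), without Single Cell Rep 2 (-0.64, edgeR adjusted p = 0.0349) and with DESeq2 (-0.52, adjusted p = 0.0273). In TPM, PEG10 was 24.8, 21.5 and 38.2 times as high as SGCE in the single cells and between 16.3 and 21.8 times in the other libraries.

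Of the other genes listed for this domain, 4 of 7 were on and PON1, PON3 and ASB4 were at 0 counts in all libraries. PPP1R9A, the gene of neurabin and maternally expressed in some tissues, averaged 136.5 CPM in the single cells and 104.0 CPM in the 6 other libraries. TFPI2, a maternally expressed inhibitor of proteases in the placenta, averaged 10.4 CPM in the single cells and 4.72 CPM in the other libraries. All 3 single cells lay above the 6 other libraries, as 4.94% of the genes tested did. TFPI2 did not pass the test (log2 fold change 1.14, edgeR adjusted p = 0.156). Across 9 libraries and 9759 genes with at least 10 CPM, ABCC1 (Pearson r = 0.923) and FLNC (0.919) were among the 3 genes whose log2 CPM was most like that of PEG10, and ARFGEF1 (0.986) and DNAJB6 (0.980) among the 3 most like SGCE. These coefficients describe points that share their libraries, and they carry no test.

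MEST, CDKN1C and MEG3 were the members with low but measurable levels, and the promoters of MEST and MEG3 are shown with those of SNRPN and NDN, so that the letters before a gene with counts can be set beside those before genes with few counts or none. The windows hold the 250 bases before a start site, from RefSeq (GRCh38.p14), in which 5 of the 10 members have an entry. The capitals mark TGCCGC and its reverse complement GCGGCA, the core that ZFP57 binds when it is methylated to keep imprints, searched on both strands with no overlap between matches.
MEST, first start, chr7:130485925-130486174, plus strand: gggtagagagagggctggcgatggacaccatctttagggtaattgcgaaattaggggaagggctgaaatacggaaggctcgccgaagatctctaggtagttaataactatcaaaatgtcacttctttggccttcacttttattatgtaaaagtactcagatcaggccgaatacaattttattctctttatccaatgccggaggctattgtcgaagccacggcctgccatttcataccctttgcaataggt
MEST, inner start, chr7:130491808-130492057, plus strand: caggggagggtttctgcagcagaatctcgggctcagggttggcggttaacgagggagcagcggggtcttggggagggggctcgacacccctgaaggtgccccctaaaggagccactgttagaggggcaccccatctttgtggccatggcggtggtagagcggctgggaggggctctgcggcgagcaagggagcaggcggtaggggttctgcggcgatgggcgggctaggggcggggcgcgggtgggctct
MEG3, chr14:100825858-100826107, plus strand: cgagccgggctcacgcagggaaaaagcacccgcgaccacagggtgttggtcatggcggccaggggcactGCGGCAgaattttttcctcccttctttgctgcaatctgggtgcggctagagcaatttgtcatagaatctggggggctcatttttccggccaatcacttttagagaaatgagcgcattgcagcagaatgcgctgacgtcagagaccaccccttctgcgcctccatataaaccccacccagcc
SNRPN and SNURF, chr15:24954737-24954986, plus strand: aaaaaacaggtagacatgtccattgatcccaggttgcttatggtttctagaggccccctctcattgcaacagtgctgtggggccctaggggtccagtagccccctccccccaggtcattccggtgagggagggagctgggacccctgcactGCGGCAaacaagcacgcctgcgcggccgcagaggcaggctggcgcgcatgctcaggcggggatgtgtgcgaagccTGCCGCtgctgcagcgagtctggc
NDN, chr15:23687306-23687555, minus strand: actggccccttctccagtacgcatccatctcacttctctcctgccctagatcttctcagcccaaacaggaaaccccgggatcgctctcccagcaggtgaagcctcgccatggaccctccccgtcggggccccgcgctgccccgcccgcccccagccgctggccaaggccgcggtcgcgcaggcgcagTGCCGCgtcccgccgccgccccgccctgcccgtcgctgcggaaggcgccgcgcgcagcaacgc

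The hexamer was found 0 times in each MEST window, 1 time in the MEG3 window, 2 times in the SNRPN window and 1 time in the NDN window, and at least 1 time in 12.7% of 34943 promoter windows of the same length. The 5 windows held 9, 16, 13, 12 and 30 CG dinucleotides in the order shown, against a median of 11 over all windows, and the NDN window held more than 87.6% of them. A match of letters is a description and not a binding site.

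MEST (mesoderm specific transcript), on chr7:130486175-130506297 (plus strand), encodes a hydrolase of the endoplasmic reticulum and is expressed from the paternal copy. It was the most uneven of the members that were on. MEST had 1.27, 12.2 and 0.0575 CPM in the single cells, or 66, 625 and 3 counts, against 6.55 and 7.46 CPM in 10 cells, 4.13 and 4.66 CPM in 100 cells, and 6.11 and 4.54 CPM in 1000 cells. Single Cell Rep 2 was above and Single Cell Rep 1 and 3 were below every other library. The level in Single Cell Rep 2 was 216 times that in Single Cell Rep 3, with an exact 95% interval of 73.6 to 1050 that covers counting error only. The log2 fold change between single cells and the other libraries was -0.30 ± 0.98 (SE, edgeR adjusted p = 0.887). It turned positive without Single Cell Rep 1 (0.14, edgeR adjusted p = 0.940) and without Single Cell Rep 3 (0.28, edgeR adjusted p = 0.790), and it passed the test without Single Cell Rep 2 (-3.06, edgeR adjusted p = 0.0443).

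MESTIT1, a paternally expressed noncoding RNA that runs antisense inside MEST, was found in pools and almost never in single cells. It had 0, 0 and 2 counts in the single cells, against 59 and 87 counts in 10 cells, 94 and 34 counts in 100 cells, and 30 and 82 counts in 1000 cells. The level in the single cells was 0.0100 times that in the 6 other libraries. The exact 95% interval, for counting error only, was 0.00121 to 0.0364. MESTIT1 passed the filter on low counts through the pools alone, so only a fall was open to it. The difference passed the test (edgeR adjusted p = 0.0255). It did not pass without 100 Cell Rep 2, 1000 Cell Rep 1 or 1000 Cell Rep 2 (edgeR adjusted p = 0.0683, 0.0674 and 0.0676), where 0 of all genes were called and the fitted log2 fold change was -6.51, -6.51 and -6.36, against -6.38 with all libraries. COPG2IT1, a paternally expressed RNA within COPG2, had 119, 0 and 0 counts in the single cells and 38 to 123 counts in the other libraries, so that each of these RNAs and MEST itself was at or near 0 in at least 1 single cell. Single Cell Rep 2, which was highest for MEST, had no count of either antisense or intronic RNA, and Single Cell Rep 1 held all counts of COPG2IT1 among the single cells. The maternally expressed CPA4 and KLF14 of this domain had 9 and 0 counts over all libraries, and COPG2 and CEP41 were on.

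CDKN1C, on chr11:2883218-2885765 (minus strand), encodes the cyclin-dependent kinase inhibitor p57, a brake on the cell cycle that is expressed from the maternal copy and mutated in Beckwith-Wiedemann syndrome. It had 3.05, 2.96 and 0.843 CPM in the single cells, against 3.07 and 3.50 CPM in 10 cells, 3.02 and 2.92 CPM in 100 cells, and 4.54 and 4.15 CPM in 1000 cells. Single Cell Rep 3 lay below all other libraries while the other single cells lay inside their range. The log2 fold change was -0.63 ± 0.57 (SE, edgeR adjusted p = 0.556), and -0.23 without Single Cell Rep 3 (edgeR adjusted p = 0.727). The files list CDKN1C also on alternate sequences, 11 exon records, and reads that map equally well to a copy are left out of the counts. Of the other genes named here, H19, KCNQ1, PHLDA2, SLC22A18, KCNQ1DN and NAP1L4 also have such records. NAP1L4, with all 16 of its exon records repeated, had 253.2 CPM in the mean of the 6 libraries, which does not show what share of its reads was lost. Whether reads were lost in this way was not tested.

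The same domain of chromosome 11 holds the paternally expressed RNA KCNQ1OT1. KCNQ1OT1 had 0.425, 0.0196 and 1.90 CPM in the single cells, and 0.0610 to 0.465 CPM in the other libraries. The single cell with the most, at 99 counts, lay above the range of the other libraries. The single cell with the least had 1 count, against 3 counts in each library of 10 cells, too few to tell apart. Of the 7 maternally expressed genes listed there, CDKN1C and OSBPL5 were on, KCNQ1, PHLDA2 and SLC22A18 were low, and KCNQ1DN and ASCL2 were at 0 counts. TSSC4, a gene at the edge of the domain whose protein takes part in the assembly of the splicing machinery, had 26.6, 23.3 and 35.8 CPM in the single cells, against 11.7 and 11.1 CPM in 10 cells, 12.3 and 14.8 CPM in 100 cells, and 15.4 and 13.7 CPM in 1000 cells. It rose in the single cells (log2 fold change 1.12, edgeR adjusted p = 0.0188), and did not pass without 100 Cell Rep 2, 1000 Cell Rep 1 or 1000 Cell Rep 2 (edgeR adjusted p = 0.0607, 0.0620 and 0.0638), where 0 of all genes were called and its log2 fold change was 1.15, 1.17 and 1.13.

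**Figure D2:**
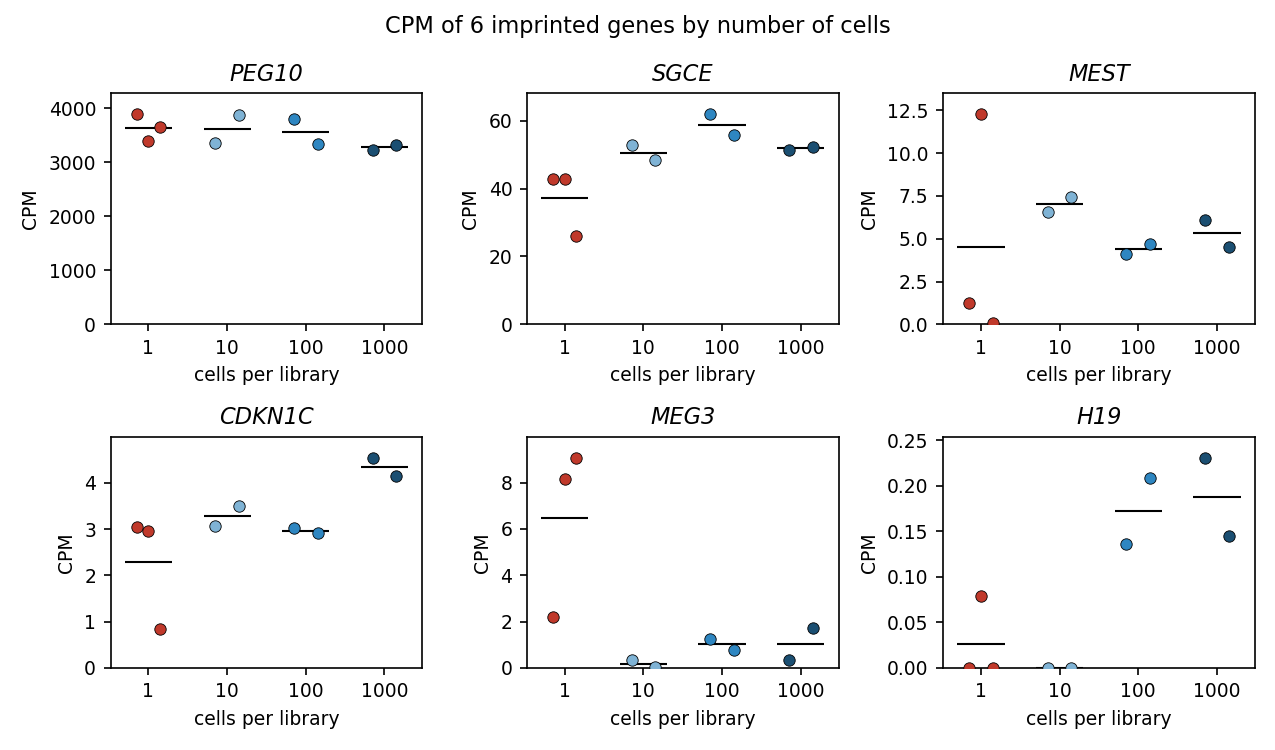
CPM of PEG10, SGCE, MEST, CDKN1C, MEG3 and H19 on linear axes that start at 0, against the number of cells per library from 1 to 1000. Points are single libraries and bars their mean. SGCE is lower in all 3 single cells, MEST runs from 0.0575 to 12.2 CPM among them, and MEG3 is higher in all 3 single cells than in any other library.

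MEG3 (maternally expressed gene 3), on chr14:100826108-100861023 (plus strand), gives a long noncoding RNA that acts as a growth suppressor and is silenced in many tumours. Of the 5 members tested it had the largest log2 fold change between single cells and pools. MEG3 had 2.18, 8.13 and 9.06 CPM in the single cells, or 113, 415 and 473 counts, against 0.323 and 0.0203 CPM in 10 cells, 1.26 and 0.758 CPM in 100 cells, and 0.346 and 1.74 CPM in 1000 cells. All 3 single cells lay above all 6 other libraries, as 4.94% of the genes tested did. The single cells together held 1001 of the 1244 counts of MEG3. The log2 fold change was 3.12 ± 0.94 (SE), an 8.67-fold difference, and did not pass the test (edgeR adjusted p = 0.0690). It passed with DESeq2 (3.14, adjusted p = 0.0103) and without Single Cell Rep 1 (3.52, edgeR adjusted p = 0.0305), and was 2.79 without Single Cell Rep 3 (edgeR adjusted p = 0.0831). The other libraries also scattered, with 108 counts in 1000 Cell Rep 2 and 1 count in 10 Cell Rep 2.

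DLK1, the paternally expressed partner of MEG3 and the gene of a growth factor-like protein that blocks the maturation of fat cells, went the other way. It had 0, 0 and 0 counts in the single cells, against 6 and 23 counts in 10 cells, 47 and 48 counts in 100 cells, and 31 and 48 counts in 1000 cells. All 3 single cells thus lay below all 6 other libraries, as 10.1% of the genes tested did. The SD of log2 CPM among the single cells was 0, as was the lower quartile over the 2821 genes under 1 CPM. With a floor of 3 counts over the single cells, DLK1 was at least 35.1-fold lower in them, a bound that covers counting error only. DLK1 passed the filter on low counts through the pools alone, so only a fall was open to it. The difference passed the test (edgeR adjusted p = 0.0247). Without 100 Cell Rep 2, 1000 Cell Rep 1 or 1000 Cell Rep 2, where 0 of all genes were called, it did not pass (edgeR adjusted p = 0.0683, 0.0674 and 0.0672), and DLK1 stayed at 0 counts in every single cell. RTL1, a retrotransposon-derived gene like PEG10, and the maternal RNA MEG8 had 41 and 21 counts, all in libraries of more cells, and MEG9 and DIO3 were at 0 counts in all libraries.

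H19, on chr11:1995176-2001466 (minus strand), is a maternally expressed noncoding RNA and host of the microRNA MIR675. It had 0, 4 and 0 counts in the single cells, against 0 and 0 counts in 10 cells, 7 and 11 counts in 100 cells, and 10 and 9 counts in 1000 cells. Counts were thus seen in all 4 libraries of 100 or 1000 cells and in 1 of 5 libraries of fewer cells. The highest level was 0.230 CPM. IGF2, on chr11:2129112-2149603 (minus strand), encodes the fetal growth factor expressed from the paternal copy, and had 2 and 15 counts in 1000 cells and 0 counts in the 7 other libraries. The 0 counts of the single cells allow up to 0.0192 CPM, and the other 6 libraries averaged 0.0564 CPM by library total. Of the exonic bases of IGF2, 76.1% are shared on the same strand with the readthrough gene INS-IGF2, and reads that overlap both were left out of the counts, so the level of IGF2 is a lower limit. INS-IGF2, INS and IGF2-AS were at 0 counts in all libraries.

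SNRPN, on chr15:24823647-24978582 (plus strand), encodes a protein of the splicing machinery and sits at the control region of the Prader-Willi domain, and NDN, on chr15:23685407-23687303 (minus strand), encodes necdin, a growth suppressor of neurons. Both are known to be expressed from the paternal copy. SNRPN had 0, 0 and 0 counts in the single cells, against 4 and 0 counts in 10 cells, 0 and 0 counts in 100 cells, and 2 and 1 counts in 1000 cells. NDN was at 0 counts in all 9 libraries, which allows up to 0.00656 CPM over the 457578506 counts of the series. Because 66.6% of the exonic bases of SNRPN are shared with SNURF on the same strand, reads there were left out of both genes, and the 7 counts of SNRPN and the 0 counts of SNURF do not show that the region is silent. NDN shares no base with another gene. Of the noncoding RNAs that follow SNRPN on the same strand, PWAR5 had 105, 0 and 0 counts in the single cells and 0 to 15 counts in the other libraries, and PWARSN had 12, 0 and 0 counts in the single cells and 0 to 4 in the others. Single Cell Rep 1 thus held most counts of both. IPW had 0 counts in the single cells and 4 in the other libraries, and 30 small nucleolar RNAs of the SNORD116 cluster had 6 counts in the single cells and 4 in the other libraries. The cluster was looked up after the values of SNRPN were seen, and its members are near-identical copies whose reads with several places were not counted. UBE3A, in the same domain, is a ubiquitin ligase gene mutated in Angelman syndrome and is maternally expressed where it is imprinted. It averaged 283.9 CPM in the single cells and 279.3 CPM in the other libraries. MKRN3, which is paternally expressed, restrains the onset of puberty. It had 17.8, 30.7 and 7.68 CPM in the single cells and 8.82 to 13.4 CPM in the other libraries.

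PEG3 (paternally expressed gene 3), on chr19:56810077-56840726 (minus strand), encodes a zinc finger protein known for its part in maternal behaviour in the mouse. It was at 0 counts in all 9 libraries, with the same limit of 0.00656 CPM as NDN. All 5 paternally expressed genes listed for the domain, PEG3, ZIM2, MIMT1, USP29 and PEG3-AS1, were at 0 counts throughout. PEG3 shares 10.4% of its exonic bases with ZIM2 on the same strand, so most of the gene could be counted. ZNF264 at the edge of the domain was the single gene of this list with counts, and it had 348, 0 and 408 counts in the single cells and 13 to 88 in the other libraries.

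**Figure D3:**
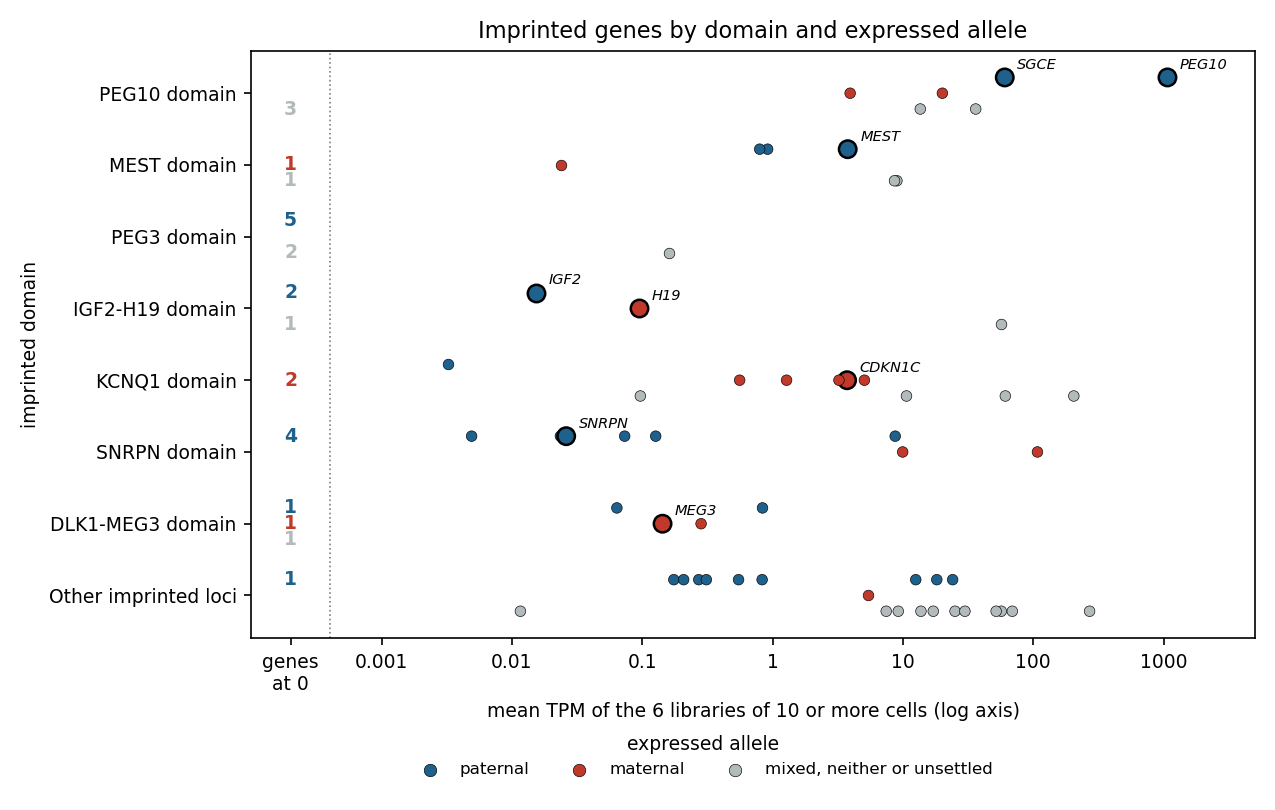
Mean TPM over the 6 libraries of 10 or more cells, on a log axis, of 84 imprinted genes and neighbours in 8 groups, coloured by the allele known to be expressed. Large points with names are members, and digits on the left count the genes at 0 counts in these libraries, PEG3 and NDN among them. All 5 paternally expressed genes of the PEG3 domain are at 0, while PEG10 lies at 1070 TPM, above all other genes drawn.

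The wider list of imprinted domains and loci held 86 genes, of which 84 were among the gene models and 74 were not members. Of these 74 genes, 28 were on, 20 low and 26 off, and 22 had no count in any library, as 5906 of all 26485 gene models had. Among paternally expressed genes, members included, 7 of 37 were on, and among maternally expressed genes 7 of 18, beside the 47.3% of all gene models. The difference between these shares was not tested. The paternal list holds SNRPN, SNURF, IGF2 and ZIM2, which share exonic bases with another gene and lose the reads there. It also takes 10 genes from the SNRPN domain and 5 from the PEG3 domain, of which 1 and 0 were on. Some genes of the maternal list, such as PPP1R9A, are imprinted in some tissues only, so the shares give no reading by parent. The paternally expressed genes that were on were PEG10, SGCE, MEST, MKRN3, ZDBF2, NAP1L5 and MCTS2P, at mean levels between 3.77 TPM for MEST and 1070 TPM for PEG10 in the 6 libraries. The maternally expressed ones were CDKN1C, OSBPL5, PPP1R9A, TFPI2, UBE3A, ATP10A and ZNF597, at 3.73 to 107.6 TPM. GNAS, which gives the stimulatory G protein subunit and is imprinted in a few tissues through alternative promoters, followed PEG10 with 270.2 TPM, and IGF2R, the receptor that clears IGF2, had 69.0 TPM.

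In the comparison of single cells with the 6 libraries of more cells, 5 of the 10 members passed the filter on low counts (PEG10, SGCE, MEST, CDKN1C and MEG3) and 0 were called by edgeR's test, while 6.67% of all genes tested were. Of the 5, SGCE and MEG3 had an unadjusted p under 0.05, and DESeq2 called these 2. Of the 42 other genes of the wider list that were tested, TSSC4 rose and MESTIT1 and DLK1 fell. Of all genes tested, 2.22% rose and 4.45% fell. MESTIT1 and DLK1 passed the filter on low counts through the pools alone, so only a fall was open to them. These calls give no result about imprinted genes as a set. The median log2 fold change was -0.30 over the 5 members, 0.12 over the 42 other genes and 0.01 over all genes tested, and it stayed at 0.12 with the 2 genes at 0 counts in the single cells placed at their floor. In the comparison of 10 cells with 100 and 1000 cells, 6 members were tested and 0 were called by edgeR or DESeq2, where edgeR called 0.0188% of all genes, that is 3 of 15926. MEST, H19 and MEG3 had an unadjusted p under 0.05 there, with adjusted p = 0.344, 0.284 and 0.343 in edgeR. H19 had 0 counts in 10 cells and passed the filter through the larger pools alone. Only a lower level in 10 cells was thus open to it.

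The spread among the single cells was measured as the SD of the log2 CPM and set against all 84 choices of 3 of the 9 libraries. In this exact one-sided permutation test the smallest p is 0.0119, and it is reached by the gene whose single cells are the most uneven triple. That was so for 14.9% of the 16184 genes tested and for 0 of the 6 members tested. The SD was 3.50 for MEST (exact p = 0.107), 1.13 for MEG3 (exact p = 0.893), 1.03 for CDKN1C (exact p = 0.274), 0.91 for H19 (exact p = 0.833), 0.41 for SGCE (exact p = 0.333) and 0.10 for PEG10 (exact p = 0.667). The choices include mixtures of single cells and pools, whose SD also grows with a difference in level between them. The p therefore does not compare single cells with pools alone. Among the 6 other libraries the SD was 0.34 for MEST, 0.26 for CDKN1C and 0.12 for SGCE, below that of their single cells. There it was 1.76 for MEG3, 1.29 for H19 and 0.11 for PEG10, above that of their single cells. Without Single Cell Rep 3, the SD among the single cells was 2.28 for MEST, 1.33 for MEG3, 0.03 for CDKN1C and 0.0021 for SGCE. Without Single Cell Rep 1, the lowest for MEG3, the SD of MEG3 was 0.11. The SD of H19 rests on the 4 counts of Single Cell Rep 2 and on the prior count, with 1.83 at a prior count of 0.5, 0.49 at a prior count of 5 and 0 without that cell. Without Single Cell Rep 1 or Rep 3, the remaining single cells were the most uneven pair of MEST among 28 (exact p = 0.0357), as they were for 23.4% and 22.0% of all genes.

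Because low genes scatter more, each SD was also set beside those of genes of like level. The SD of MEST was larger than that of 92.4% of the 1352 genes at 5 to 10 CPM, whose median was 1.07. The SD of SGCE was larger than that of 52.8% of the 4133 genes at 30 to 100 CPM, and that of PEG10 larger than that of 40.6% of the 64 genes above 1000 CPM, so both were near the middle of their class. CDKN1C, with 1.03 against a median of 2.04 for the 1368 genes at 2 to 5 CPM, had a larger SD than 22.7% of them, and H19 lay below the median of 1.68 for the 2821 genes under 1 CPM. MEG3 falls in that class by its level in the pools, but its single cells averaged 6.46 CPM, and its SD of 1.13 lies below 1.68 and above the 1.07 of the genes at 5 to 10 CPM. Among the other genes of the wider list, 9 of 42 had the highest SD of all choices, beside the 14.9% of all genes, and the difference was not tested.

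**Figure D4:**
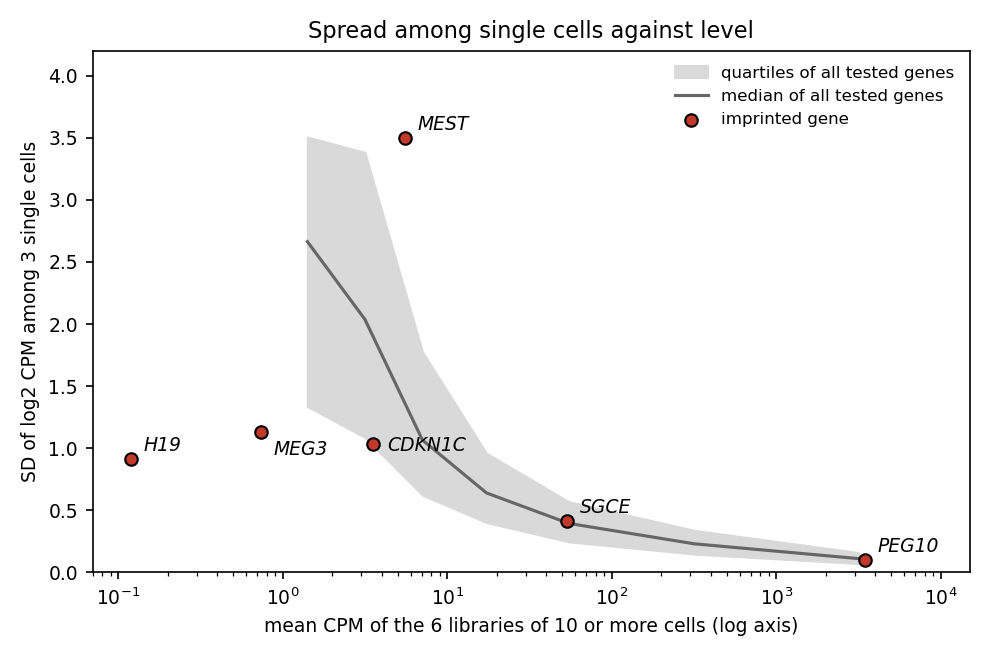
SD of the log2 CPM among the 3 single cells against the mean CPM of the 6 libraries of 10 or more cells, on a log axis, for the 6 members tested. The line and the band are the median and the quartiles of all genes in classes of level from 1 CPM upwards. MEST, at 3.50, lies above the band, PEG10 and SGCE lie near the median, and MEG3 and H19 fall below 1 CPM, where no band is drawn.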

How the data were processed

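RNA of sorted HAP1 cells was sequenced in 9 libraries. Per the submitters' processing notes, the tools were FastQC 0.11.9, Trim Galore 0.6.7, HISAT2 2.2.1 (genome hg38), SAMtools 1.16.1 and featureCounts (Subread 2.0.6), and the authors deposited whole read counts per gene. Each mate of a pair was counted on its strand, and reads with several places or several genes were left out. The annotation release is not given in the sources used here.

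From these counts, CPM (TMM) and log2 CPM (prior count 2) were computed in R 4.3.3 with edgeR 4.0.16. TPM used the exonic length on the primary sequences. Single cells were compared with 10, 100 and 1000 cells together, and 10 cells with 100 and 1000, by edgeR's quasi-likelihood test after filterByExpr, with Benjamini-Hochberg adjustment at 0.05. The SE of a log2 fold change was derived from this test, as its size divided by the square root of the F statistic. DESeq2 1.42.0 was an alternative. The edgeR test and the permutation test of the spread were tried on simulated data first, and DESeq2 was not. The counts simulated for edgeR gave single cells and pools the same spread. Intervals and floors (3 counts) cover counting error only, because PCR copies were not marked. Named genes were the members, genes of the wider list that were on, called or partners of a member, and the 3 genes most like each member of at least 10 CPM, some of which are not reported here. ZNF264, COPG2IT1, RTL1 and other genes at the edge of a statement were named after their values were seen. The members and lists were chosen with earlier results of these data known.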

Additional observations from a re-analysis of the deposited data

How the results depend on the processing

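The count of members called between single cells and the 6 other libraries was 0 in 13 of 16 alternatives. It was 2 with DESeq2, and it ranged between 0 and 2 when 1 library was left out. The replicate block left it at 0 and moved the number of all genes called to 2077, against 1041 without the block. Only the single cells have a replicate 3, so the block fits Single Cell Rep 3 by itself and takes it out of the comparison. It is thus close to leaving that library out, where 2398 genes were called, and is no separate check. The same-numbered libraries did not deviate together (r between -0.024 and 0.025 over 16184 genes), so the numbers do not pair the libraries. The number of all genes called was 2595 with DESeq2, 682 with no filter, 573 with at least 10 CPM in 2 libraries and 0 in the fit of all 4 cell numbers with one spread, and ran between 0 and 3188 when 1 library was left out. In that common fit TSSC4, MESTIT1 and DLK1 did not pass either (largest edgeR adjusted p = 0.118, for MESTIT1). The log2 fold change of MEST was -0.30 with all libraries, 0.14 without Single Cell Rep 1, -3.06 without Single Cell Rep 2 and 0.28 without Single Cell Rep 3, with 2 single cells left in each case. For 10 cells against 100 and 1000 cells, 0 members were called in all 13 alternatives, while all genes called ran to 266 with DESeq2, 7 with no filter, 0 in the common fit and between 0 and 162 when 1 library was left out. The count of members with the highest SD was 0 in all 5 alternatives of scaling, prior count and depth and ranged between 0 and 1 when 1 library was left out. The 4 members on became 2 at a threshold of 5 CPM (PEG10 and SGCE) and 2 when all 9 libraries had to pass, and stayed at 4 at 0.5 CPM, at 1 TPM, with library totals, at the smallest depth and without any 1 library. The counts of H19, IGF2 and SNRPN stayed at 15 or fewer per library, so their levels are loosely measured. The part of depth in this was not tested.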
